A study of Sus scrofa with 12 samples.

Results

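Markers of basal and luminal epithelial cells were followed in tissue of the epididymis and of the testis. The epididymis is the coiled duct that carries sperm away from the testis and holds them while they mature. The animals were Banna mini-pig inbred line (BMI) boars. The markers were chosen by name: TP63, KRT5, KRT14, KRT15 and KRT17 for basal cells, and KRT7, KRT8, KRT18, KRT19 and EPCAM for luminal cells. Of these 10 genes, 8 were measured among the 30640 gene rows of the count tables, 4 basal and 4 luminal. KRT17 and KRT19 were not analysed here. The data are short-read RNA sequencing libraries of bulk tissue, 5 of epididymis and 5 of testis, numbered 1 to 5 in each tissue. All boars were adult and untreated. The same 5 boars gave both tissues, because the same animal number heads the files of each pair. Ages differ between the sources (12 months in the labels, and 11, 12 or 17 months in the headers of the files), so no comparison uses them. The headers give 17 months for replicate 4 of both tissues, and 11 or 12 months for the others. What sets replicate 4 apart in either tissue therefore cannot be told apart from a difference of age. The labels do not say which part of the epididymal duct was taken. Another 2 samples, long-read libraries from pools of 5 boars, were not analysed here.

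The lining of the epididymal duct is a pseudostratified epithelium. Tall principal cells face the lumen and secrete most proteins of the epididymal fluid, while small basal cells sit on the basement membrane beneath them. Basal cells of many epithelia carry the transcription factor p63 and the keratin pair KRT5 and KRT14, whereas simple luminal cells carry KRT8 with KRT18, and often KRT7 with KRT19. Keratins form filaments only as pairs of one type II chain (KRT5, KRT7, KRT8) with one type I chain (KRT14, KRT15, KRT17, KRT18, KRT19). EPCAM is a cell adhesion molecule of simple epithelia. The adult testis holds little epithelium of this kind, since the tubules are lined by Sertoli and germ cells.

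Libraries held 17980578 to 21937263 counted reads in epididymis and 18715154 to 30211957 in testis. A count of 0 allows up to 3 reads, which is 0.137 to 0.167 CPM in an epididymis library and 0.0993 to 0.160 CPM in a testis library, with CPM for counts per 1000000 counted reads. Such floors cover counting error only, since PCR copies were not told apart. Leydig and principal cell markers fell on the side that the tissue labels give. The summed level of 6 Leydig cell genes was 26.6 to 34.1 CPM in epididymis and 12220 to 19470 CPM in testis, and that of 13 principal cell genes was 13590 to 31180 CPM in epididymis and 62.9 to 143 CPM in testis. Epididymis replicate 3 stood apart within its tissue. It held 444 CPM of 11 germ cell genes, against 22.7 to 70.4 CPM in the other epididymis libraries. Smooth muscle genes summed to 7564 CPM in epididymis replicate 3 and 6267 CPM in replicate 4, against 12900 to 17850 CPM in epididymis replicates 1, 2 and 5. Testis replicate 4 differed from the other testis libraries and was like the epididymis libraries in another way. The signal recognition particle RNA, which has no poly(A) tail, was at 1.00 to 8.27 CPM in epididymis and at 7.75 CPM in testis replicate 4. It was at 7888 to 9134 CPM in the other testis libraries. For those, tissue and this difference between libraries cannot be told apart. Results were therefore also computed with testis replicate 4 as the sole testis library, where the spread comes from the epididymis alone and the lone sample is assumed to vary like it.

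The rows of some keratins need care. The KRT14 row was 7664 bases long and the KRT5 row 10049 bases, the second longest and the longest of 37 keratin rows, whose median length was 2112 bases. KRT5 lies on chromosome 5 (17862047 to 17868397 in the RefSeq table of Sscrofa11.1), a span of 6351 bases that is shorter than its counted row. RefSeq gives no gene under the symbol KRT14 in this build. Between EIF1 and KRT15 its one keratin with a symbol is KRT19 (chromosome 12, 21115453 to 21119115). RefSeq also lists protein-coding genes there that carry only locus numbers. Whether any of them is KRT14 or another type I keratin was not tested. The row of the count tables between EIF1 and KRT15 that carries a symbol is named KRT14. Whether reads of other type I keratins, the luminal marker KRT19 among them, were counted in the KRT14 row was not tested. Luminal reads may therefore sit on the basal side, and the balance of the markers is given with and without this row. The other type I members are KRT15 (chromosome 12, 21124605 to 21130247) and KRT18 (chromosome 5, 18217686 to 18221432). The type II genes KRT7 (17553192 to 17570582) and KRT8 (18172423 to 18180277) also lie on chromosome 5, where RefSeq lists KRT7 as a long non-coding RNA and KRT8 as protein coding, TP63 on chromosome 13 (127115990 to 127347082) and EPCAM on chromosome 3 (93169800 to 93185221). KRT8 and KRT18 have processed copies in mammalian genomes, so reads may be split between copies.

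All 8 measured markers, basal and luminal alike, were higher in epididymis than in testis. All 8 passed the low-count filter, and edgeR's quasi-likelihood test with Benjamini-Hochberg adjustment over 17225 genes called each of them at an adjusted p of 0.05. That test called 37.8% of all tested genes higher in epididymis, 36.6% higher in testis and 74.4% in either direction. For each of the 8 markers all 5 epididymis libraries lay above all 5 testis libraries, which held for 29.3% of all tested genes, while the opposite order held for 32.1%. The log2 fold changes, epididymis over testis, ran from 5.63 to 8.92 with a median of 7.70, whereas the median of all tested genes was 0.07. The medians were 7.86 for the 4 basal and 7.17 for the 4 luminal genes. A log2 fold change of at least 4 was called in 4.5% of all tested genes. In bulk tissue, fewer cells of a type and less RNA per cell cannot be told apart. Of the alternatives tried, 1 ended a call. With testis replicate 4 alone for its tissue, TP63 had a log2 fold change of 5.17 and an edgeR adjusted p of 0.0644, so that 7 of the 8 markers were called.

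**Figure D1:**
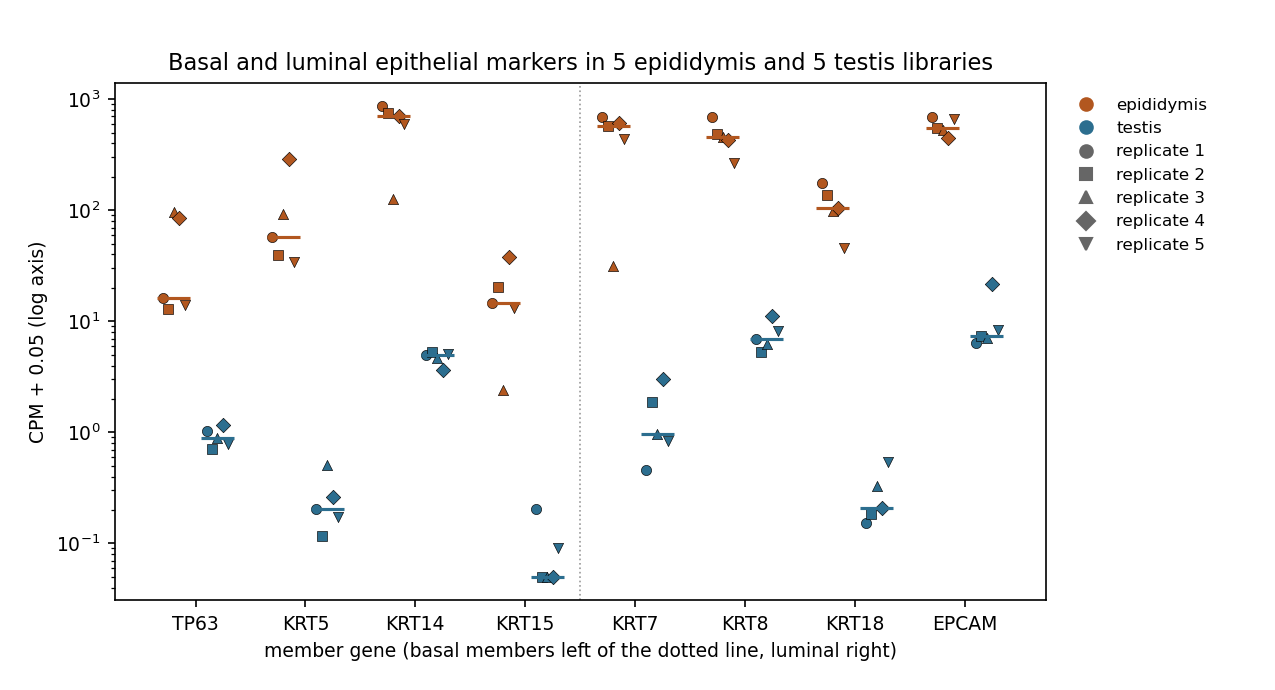
Levels of the 8 markers in each library as CPM plus 0.05 on a log axis, with the epididymis left of the testis for each gene, a symbol for each replicate number and a bar at the median. Every epididymis library lies above every testis library for each gene, and TP63 at 96.3 and 84.7 CPM in epididymis replicates 3 and 4 stands away from 12.9 to 16.0 CPM in the other 3.

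Among the basal markers, TP63, which encodes the transcription factor p63 that maintains basal cells, had 16.0, 12.9, 96.3, 84.7 and 13.96 CPM in epididymis replicates 1 to 5. In testis replicates 1 to 5 it had 0.973, 0.662, 0.833, 1.12 and 0.739 CPM. Epididymis replicates 3 and 4 were high, the other 3 epididymis libraries lay close together, and the tissues did not overlap. The log2 fold change was 5.63 ± 0.68 (SE, n = 5 each, edgeR adjusted p = 1.4e-05). Without both epididymis replicates 3 and 4 it was 4.10 (edgeR adjusted p = 1.1e-07).

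KRT5, the type II keratin of basal cells, had 57.7, 39.8, 92.5, 292 and 34.2 CPM in epididymis replicates 1 to 5 and 0.154, 0.0662, 0.463, 0.214 and 0.123 CPM in testis replicates 1 to 5. Epididymis replicate 4 was highest by a wide margin and replicate 3 came next. The testis values rest on 22 reads in all. Its log2 fold change of 8.92 ± 0.81 (SE, n = 5 each, edgeR adjusted p = 1.5e-06) was 8.12 without epididymis replicate 4.

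KRT14 is the type I partner of KRT5 in basal cells. The row of that name was the most abundant row counted as basal. It had 864, 753, 126, 706 and 600 CPM in epididymis replicates 1 to 5, against 4.97, 5.23, 4.58, 3.58 and 5.01 CPM in testis replicates 1 to 5. Here epididymis replicate 3 was low, unlike for TP63 and KRT5, and the testis libraries were close to each other. KRT14 thus had a log2 fold change of 7.01 ± 0.52 (SE, n = 5 each, edgeR adjusted p = 3.1e-07).

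KRT15, a type I keratin of basal and progenitor cells, was the least abundant of the 8 genes in CPM. It had 14.7, 20.4, 2.37, 38.0 and 13.1 CPM in epididymis replicates 1 to 5. In testis it had 3 reads in replicate 1, 1 read in replicate 5 and 0 reads in replicates 2, 3 and 4. Epididymis replicate 3 was the lowest and replicate 4 the highest epididymis library. The fitted log2 fold change of 8.70 ± 0.96 (SE, n = 5 each, edgeR adjusted p = 6.7e-06) rests on these 4 testis reads and depends on the prior count. It was 10.01 without testis replicate 1 and 11.4 with testis replicate 4 alone for its tissue.

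Among the luminal markers, KRT7, a type II keratin of simple glandular and ductal epithelia, had 686, 579, 31.5, 612 and 436 CPM in epididymis replicates 1 to 5. In testis replicates 1 to 5 it had 0.410, 1.82, 0.926, 2.99 and 0.780 CPM. Epididymis replicate 3 was far below the other 4, yet still above every testis library. Between the tissues KRT7 differed by a log2 fold change of 8.39 ± 0.90 (SE, n = 5 each, edgeR adjusted p = 5.7e-06), and 7.20 with testis replicate 4 alone for its tissue.

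KRT8, the type II keratin of simple epithelia, had 689, 488, 459, 426 and 267 CPM in epididymis replicates 1 to 5 and 6.81, 5.26, 6.16, 11.2 and 8.17 CPM in testis replicates 1 to 5. KRT18, its type I partner, had 176, 136, 99.2, 105 and 45.9 CPM in the epididymis libraries and 0.102, 0.132, 0.278, 0.160 and 0.493 CPM in the testis libraries. In both genes epididymis replicate 1 was highest and replicate 5 lowest, and the tissues did not overlap. The log2 fold change was 5.95 ± 0.32 for KRT8 (SE, n = 5 each, edgeR adjusted p = 4.4e-08). KRT8 stood at 5.28 with testis replicate 4 alone for its tissue. For KRT18 the log2 fold change was 8.85 ± 0.53 (SE, n = 5 each, edgeR adjusted p = 7.7e-08), on 27 testis reads in all.

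EPCAM had 694, 546, 524, 450 and 669 CPM in epididymis replicates 1 to 5, the narrowest spread of the 8 genes. In testis it had 6.35, 7.31, 7.03, 21.7 and 8.34 CPM, with replicate 4 apart from the others. The log2 fold change of 5.83 ± 0.40 (SE, n = 5 each, edgeR adjusted p = 1.9e-07) was 4.64 with testis replicate 4 alone for its tissue.

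**Figure D2:**
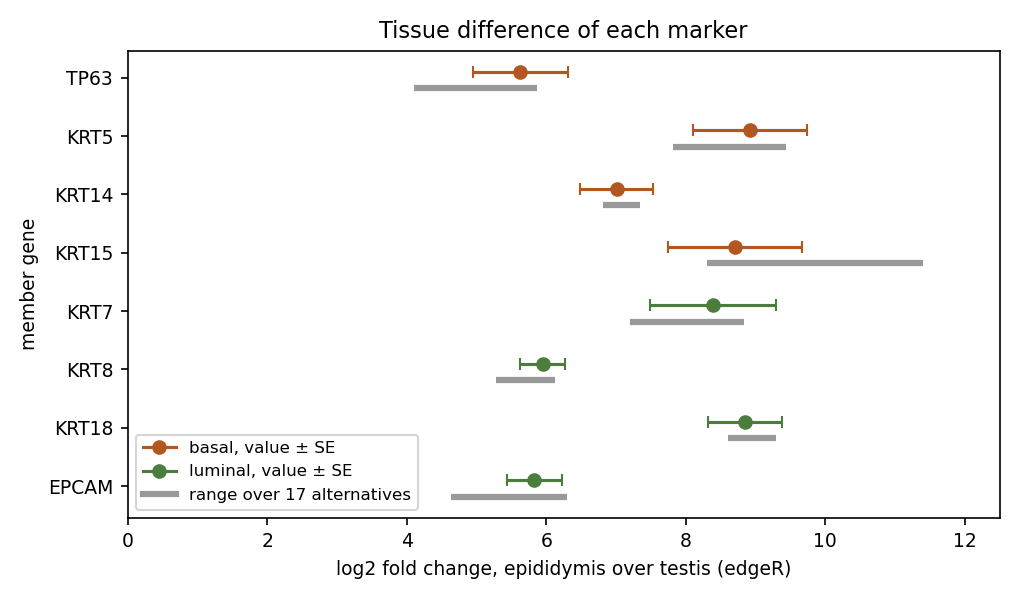
Log2 fold change of each marker, epididymis over testis, with its SE (points and whiskers) and the range over 17 alternative settings (grey bars). Every value and every range lies above 0, from 4.10 for TP63 without both epididymis replicates 3 and 4 to 11.4 for KRT15 with a single testis library.

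Levels of different genes were compared per length, in TPM, reads per base of the deposited row length scaled to the same sum in every library. By the median of the epididymis libraries the order was KRT7 (449 TPM), EPCAM (238), KRT8 (234), KRT14 (195), KRT18 (81.2), KRT15 (18.1), KRT5 (12.3) and TP63 (6.48). KRT18 was above KRT15 in all 5 libraries, KRT7 above EPCAM in 4 of 5 and KRT8 above KRT14 in 4 of 5. EPCAM was above KRT8 in 2 of 5 and KRT15 above KRT5 in 3 of 5, so these neighbours had no fixed order. The KRT5 row is longer than its RefSeq gene, and the effect of this on the TPM of KRT5 was not tested. The testis medians in TPM were 3.86 for KRT8, 3.70 for EPCAM, 1.56 for KRT14, 0.864 for KRT7, 0.374 for TP63, 0.116 for KRT18, 0.0368 for KRT5 and 0 for KRT15.

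Within the epididymis the markers did not vary together. The highest library held 21.8 times the CPM of the lowest for KRT7, 16.0 times for KRT15, 8.55 times for KRT5, 7.48 times for TP63, 6.86 times for KRT14, 3.83 times for KRT18, 2.58 times for KRT8 and 1.54 times for EPCAM. The median of this ratio was 2.0 over 9813 tested genes with a mean of at least 10 CPM in epididymis. As a description over 5 libraries, each gene's log2(CPM + 1) was set relative to its own epididymis mean, and the root mean square difference between 2 genes was taken over the libraries. Of 28 gene pairs the nearest was KRT8 with KRT18 (0.23), followed by KRT8 with EPCAM (0.49), KRT14 with KRT15 (0.53), KRT14 with KRT7 (0.65) and TP63 with KRT5 (0.69). The farthest pair was TP63 with KRT7 (2.64). KRT14 lay 2.08 from TP63 and 1.6 from KRT5. The basal genes thus parted in replicate 3. TP63 and KRT5 had their highest values in replicates 3 and 4, while the KRT14 row and KRT15 were lowest in replicate 3. The luminal KRT7 was also lowest there. KRT15, like KRT5, was highest in replicate 4, and these 2 genes lay 1.38 apart. These distances share the 5 libraries and their depth.

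**Figure D3:**
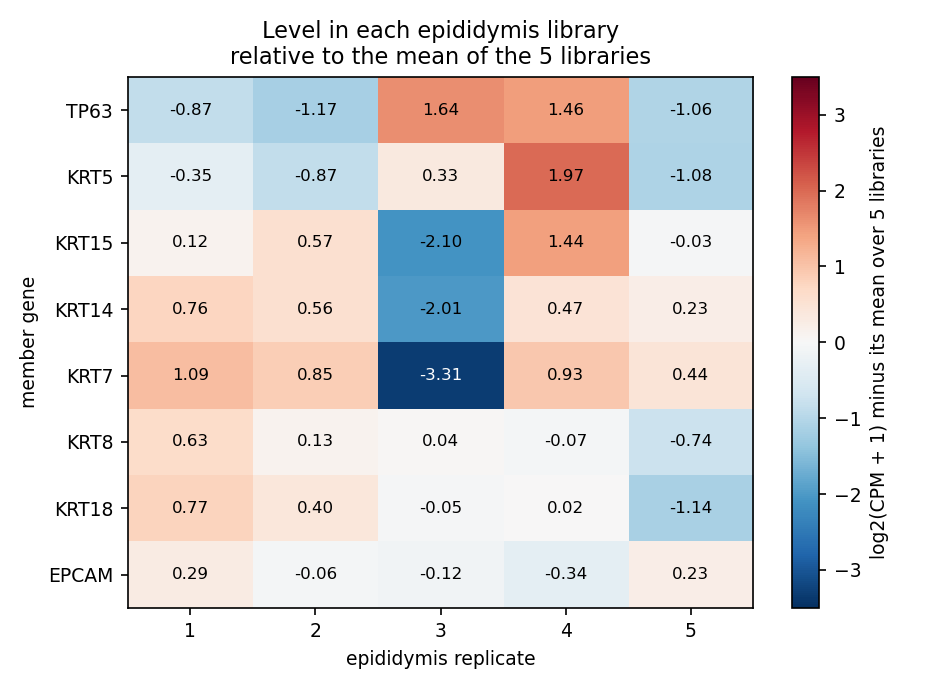
Log2(CPM + 1) of each marker in each epididymis library minus its mean over the 5 epididymis libraries. TP63 is above its mean in replicates 3 and 4 (1.64 and 1.46), KRT15, KRT14 and KRT7 are far below theirs in replicate 3 (-2.10, -2.01 and -3.31), and KRT8, KRT18 and EPCAM are near their mean in replicates 3 and 4.

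The balance of the markers was taken in each library as the percent of their summed TPM held by the basal genes. With the KRT14 row, the basal share was 17.1, 18.9, 14.7, 25.4 and 19.2% in epididymis replicates 1 to 5. In testis replicates 1 to 5 it was 23.01, 18.8, 19.2, 7.69 and 16.7%. The median was 18.9% in epididymis and 18.8% in testis, and the ranges overlapped. Summed levels lay far apart, 97.7 to 396 TPM of basal and 565 to 1355 TPM of luminal genes in epididymis, against 1.62 to 2.25 TPM of basal and 7.53 to 19.5 TPM of luminal genes in testis. Counted as reads, without division by length, the epididymis share ranged from 22.2 to 41.3%, with exact 95% binomial intervals at most 0.922 percentage points wide, which cover counting error only. In testis it ranged from 12.0 to 31.4%, with intervals up to 9.45 points wide, because only 92 to 180 basal reads were counted there.

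The balance was then taken without the KRT14 row. The share of TP63, KRT5 and KRT15 together was 2.65, 3.49, 9.90, 12.53 and 3.37% in epididymis replicates 1 to 5, and 8.39, 3.59, 5.67, 2.69 and 4.06% in testis replicates 1 to 5. This share depends on the long KRT5 row. Counted as reads, without division by length, it was 3.79, 4.01, 14.7, 20.7 and 4.14% in epididymis replicates 1 to 5. The same share of reads was 3.58 to 8.56% in testis. Epididymis replicates 3 and 4 lay above the other 3 epididymis libraries, and the tissues overlapped. In replicate 4 both sides of this ratio were well filled, with 167 TPM of the 3 basal genes and 1163 TPM of luminal genes. In replicate 3 the luminal sum was the lowest of the epididymis libraries, 565 TPM. KRT7 was at 26.7 TPM there, against 394 to 597 TPM in the other epididymis libraries. KRT8 (234.2 TPM), KRT18 (66.95 TPM) and EPCAM (237.5 TPM) in replicate 3 lay within the ranges of the other epididymis libraries. The 3 basal genes summed to 62.1 TPM in replicate 3, against 31.2 to 36.9 TPM in replicates 1, 2 and 5. The level of TP63 was 16.5 and 16.9% of that of EPCAM per length in epididymis replicates 3 and 4, and 1.87 to 2.12% in replicates 1, 2 and 5. Smooth muscle genes were lowest, and germ cell genes highest, in the same 2 epididymis libraries, and the part of these cells in the balance was not tested. Principal cell genes shifted in replicate 3 in both directions: of 12 tested, 6 were highest there, where 31.9% of all tested genes were, and 4 lowest, where 19.7% of all tested genes were. CRISP1, a secreted sperm-binding protein, was at 53.2 CPM in replicate 3 against 1382 to 2680 CPM in the other epididymis libraries, and the carboxylesterase CES5A at 6.11 CPM against 1425 to 5415 CPM. DEFB136, a beta-defensin, was at 0.729 CPM there against 696 to 1398 CPM, whereas the beta-defensin DEFB128 was at 11670 CPM against 30.9 to 496 CPM. These 4 genes were named after their values were seen, and the part of such a shift in the low KRT7, KRT14 and KRT15 of replicate 3 was not tested.

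With each gene given equal weight, the mean log2(CPM + 1) of the basal genes minus that of the luminal genes was -3.02, -2.80, -1.91, -1.04 and -2.42 in epididymis replicates 1 to 5. In testis replicates 1 to 5 it was -0.63, -0.98, -0.81, -1.69 and -1.05. Without KRT14 it was -4.29, -4.06, -2.42, -1.75 and -3.66 in epididymis and -1.16, -1.57, -1.31, -2.13 and -1.62 in testis. The mean of the luminal genes was above that of the basal genes in every library on this scale, which is not divided by length. Single genes did not all follow this order, as the KRT14 row was above KRT7 in CPM in every library. The testis means of TP63, KRT5, KRT15 and KRT18 are below the added 1 CPM, which bounds the differences there.

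**Figure D4:**
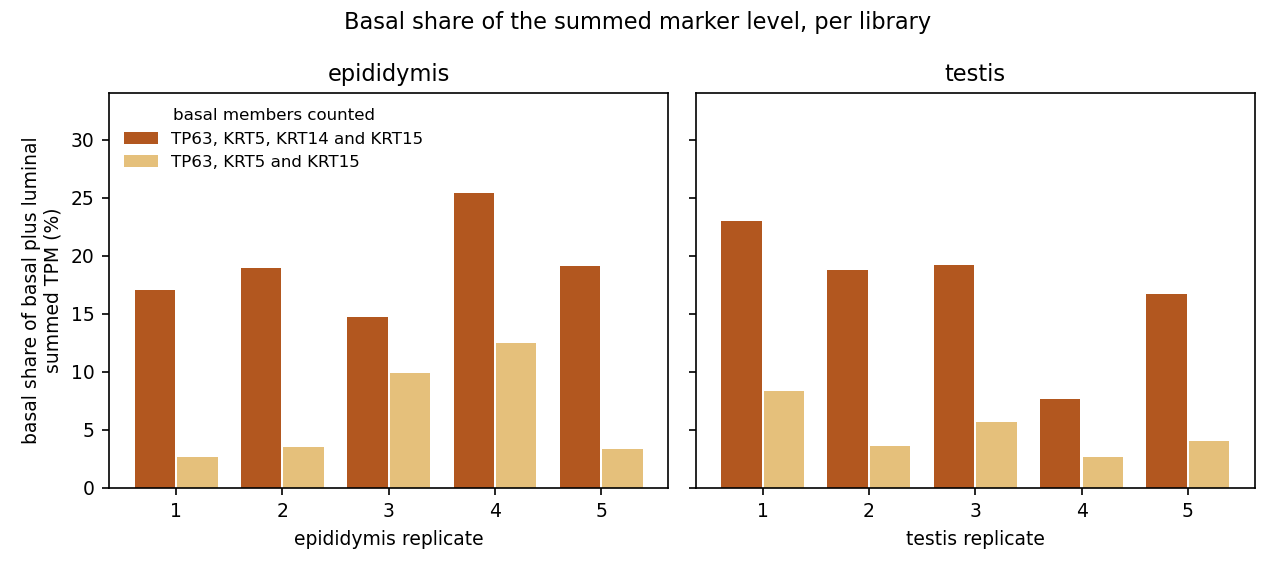
Basal share of the summed TPM of basal and luminal markers in each epididymis library (left) and each testis library (right), with the KRT14 row (dark bars) and without it (light bars). With KRT14 the shares are 14.7 to 25.4% in epididymis and 7.69 to 23.01% in testis, and without it epididymis replicates 3 and 4 reach 9.90 and 12.53% while the other epididymis libraries stay at 2.65 to 3.49%.

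Since type I and type II keratins assemble in pairs, their levels were also set side by side. KRT8 was 2.97, 2.71, 3.498, 3.08 and 4.40 times as high as KRT18 per length in epididymis replicates 1 to 5. In testis this ratio ran from 12.54 to 52.7, on 2 to 12 KRT18 reads a library. The 2 ranges did not overlap. Summed over the members measured, the type II chains KRT5, KRT7 and KRT8 stood at 2.48, 2.27, 2.66, 2.52 and 2.37 times the type I chains KRT14, KRT15 and KRT18 in epididymis replicates 1 to 5. This ratio was thus nearly level across libraries in which KRT7 and the KRT14 row each varied widely. In testis it was 2.32 to 2.72 in replicates 1, 2, 3 and 5, and 7.39 in replicate 4. Without the KRT14 row it was 4.02 to 10.9 in epididymis and 12.7 to 76.5 in testis, so the level course rests on that row. KRT5 was 0.0403 to 0.0509 times as high as the KRT14 row per length in epididymis replicates 1, 2 and 5, 0.561 times in replicate 3 and 0.316 times in replicate 4. The size of these ratios depends on the deposited lengths of both long rows.

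Other basal cell genes lay on both sides. Of 17 tested genes of a list of 24, 10 were higher in epididymis, 1 was higher in testis and 6 were not called, with a median log2 fold change of 1.36 against 0.07 for all tested genes. The most abundant of those higher in epididymis were S100A2, a calcium-binding protein of basal cells, with 127 ± 117 CPM in epididymis and 0.145 ± 0.280 CPM in testis (SD, n = 5 each), and PERP, a desmosomal protein that is a target of p63, with 101 ± 34.2 against 0.838 ± 0.633 CPM. The log2 fold change of S100A2 was 9.90 (edgeR adjusted p = 1.4e-05), 9.21 without epididymis replicate 1, 12.2 without testis replicate 4, and 7.53 with testis replicate 4 alone for its tissue, which held 0.641 CPM against at most 0.0821 CPM in the others. For PERP it was 6.90 (edgeR adjusted p = 4.9e-07). TRIM29, which is common in basal cells of squamous epithelia, went the other way, with 98.4 ± 142 CPM in epididymis and 520 ± 26.6 CPM in testis (log2 -2.46, edgeR adjusted p = 0.0101). Within the epididymis TRIM29 reached 351 CPM in replicate 3 and stayed at 11.2 to 65.0 CPM elsewhere. The log2 fold change was -3.90 without that library and -3.5 with the boar as a block. With testis replicate 4 alone for its tissue the call was lost (edgeR adjusted p = 0.202) at a log2 fold change of -2.45.

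Across the epididymis libraries, 9 of the 17 other basal genes (52.9%) were highest in replicate 4, against 21.2% of all tested genes. Replicate 3 was highest for 6 of them (35.3%), near the 31.9% of all tested genes, and lowest for 3 (17.6%, against 19.7%). The remaining 2 (11.8%) were highest in replicate 1, against 11.5% of all tested genes. The laminin chain gene LAMB3 had 54.0, 59.4, 174, 74.5 and 26.0 CPM in epididymis replicates 1 to 5, and COL17A1, the hemidesmosomal collagen, had 24.3, 17.1, 40.7, 62.4 and 16.9 CPM. These 2 genes were named after their values were seen. S100A2 differed from them, with 308, 173, 21.1, 91.6 and 40.6 CPM in epididymis replicates 1 to 5. It was thus lowest in replicate 3, as KRT14, KRT15 and KRT7 were. Also lowest there were NGFR (40.0, 36.2, 5.84, 16.7 and 15.3 CPM) and PERP (98.0, 74.6, 69.6, 155 and 107 CPM) of the same list.

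Genes of simple and luminal epithelia were mostly higher in epididymis, as the luminal markers were. Of 29 tested genes of a list of 34, 25 were higher in epididymis, 1 in testis and 3 were not called, with a median log2 fold change of 4.64. Their summed level was 4312 to 6418 CPM in epididymis and 236 to 286 CPM in testis. SPINT2, a membrane inhibitor of serine proteases, had 1478 ± 557 CPM in epididymis against 76.8 ± 32.3 CPM in testis (log2 4.27, edgeR adjusted p = 1.7e-06), with a log2 fold change of 3.37 with testis replicate 4 alone for its tissue. CLDN7, a tight junction claudin, averaged 488 ± 133 CPM in epididymis against 0.808 ± 0.470 CPM in testis (log2 9.24, edgeR adjusted p = 3.6e-08), and stood at 8.20 with that single testis library. ELF5, an epithelial transcription factor, was the exception, with 0.668 ± 0.662 CPM in epididymis and 11.7 ± 2.89 CPM in testis (log2 -4.11, edgeR adjusted p = 4.3e-05), or -4.93 without epididymis replicate 5. Of the 29 genes, 11 (37.9%) were highest in epididymis replicate 1, against 11.5% of all tested genes, and 9 (31.0%) in replicate 5, against 14.1%. Replicate 4 was highest for 6 (20.7%, against 21.2%), replicate 3 for 2 (6.9%, against 31.9%) and replicate 2 for 1 (3.45%, against 21.4%). The lowest library was replicate 2 for 12 genes (41.4%, against 25.1% of all tested genes) and replicate 3 for 11 (37.9%, against 19.7%). ELF3, an epithelial transcription factor named after its values were seen, had 246, 134, 16.1, 107 and 49.0 CPM in epididymis replicates 1 to 5.

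**Figure D5:**
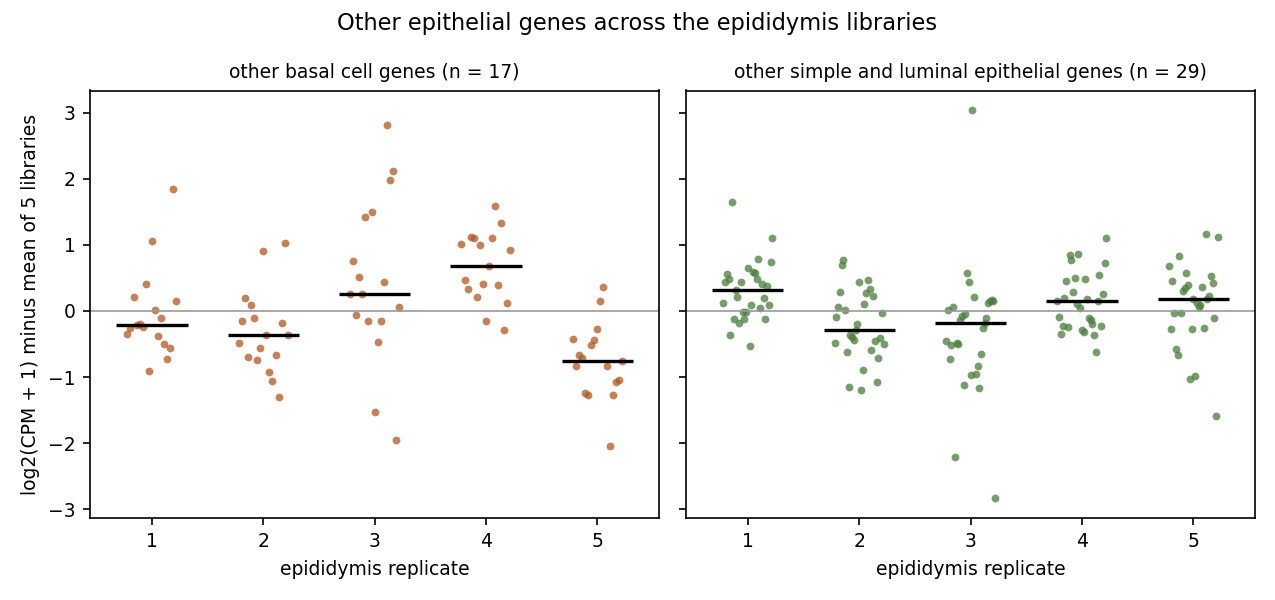
Log2(CPM + 1) of each gene of the 2 lists in each epididymis library minus its mean over the 5 epididymis libraries, with 17 other basal cell genes on the left, 29 other simple and luminal epithelial genes on the right and a bar at the median. The basal list has its highest median in replicate 4 (0.68) and its lowest in replicate 5 (-0.76), and the medians of the luminal list run from -0.29 to 0.31.

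Desmosomes anchor keratin filaments at the cell surface. Of 9 tested desmosome genes 8 were higher in epididymis and PKP4 was not called (log2 -0.07, edgeR adjusted p = 0.869), with a median log2 fold change of 3.89. Desmoplakin, DSP, which binds the filaments, had 183 ± 104 CPM in epididymis against 11.9 ± 4.35 CPM in testis (log2 3.89, edgeR adjusted p = 5.4e-06), while plakoglobin, JUP, which links the cadherins to desmoplakin, averaged 152 ± 29 against 31.2 ± 8.80 CPM (log2 2.25, edgeR adjusted p = 7.6e-06). With testis replicate 4 alone for its tissue they stood at 4.49 and 3.05. DSP was highest in epididymis replicate 4 at 347 CPM, against 72.8 to 198 CPM in the others.

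Of the other 31 keratin rows, 9 passed the low-count filter, and 5 of these were higher in epididymis, 2 in testis and 2 not called, where 37.8% of all tested genes were higher in epididymis and 36.6% in testis. KRT80, a type II keratin of epithelia, was the most abundant by mean, with 107, 34.5, 6.02, 107 and 108 CPM in epididymis replicates 1 to 5 and 5.02 to 11.5 CPM in testis. Epididymis replicate 3 was again low and lay within the testis range. Its log2 fold change was 3.32 ± 0.65 (SE, n = 5 each, edgeR adjusted p = 0.00063), and the call was lost with testis replicate 4 alone for its tissue (edgeR adjusted p = 0.129), at a log2 fold change of 3.77. KRT10, known from differentiating epidermis, was even across epididymis, with 17.7 ± 2.61 CPM in epididymis and 5.86 ± 0.408 CPM in testis (SD, n = 5 each, log2 1.57, edgeR adjusted p = 9.4e-06).

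The 2 keratins higher in testis were KRT32 and KRT4. KRT32, a type I hair keratin (chromosome 12, 21176984 to 21185014), had 0.302 ± 0.2998 CPM in epididymis and 40.6 ± 6.49 CPM in testis (SD, n = 5 each, log2 -7.08, edgeR adjusted p = 9.0e-07). KRT4, a type II keratin of mucosal epithelia (chromosome 5, 18091742 to 18099086), had 0.0587 ± 0.0842 CPM in epididymis and 6.775 ± 1.007 CPM in testis (SD, n = 5 each, log2 -6.71, edgeR adjusted p = 2.4e-06). Both fits rest on few epididymis reads: KRT4 moved to -7.72 without epididymis replicate 3 and to -10.2 without both replicates 3 and 4, and KRT32 to -8.74 without both.

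KRT36, another type I hair keratin (chromosome 12, 21155419 to 21162458), was decided by 1 library. In epididymis replicate 4 it reached 44.6 CPM, with 0 to 0.147 CPM in the other 4 epididymis libraries, against 7.27 to 11.2 CPM in testis. It was not called (log2 -0.15, edgeR adjusted p = 0.928), but was called higher in testis without epididymis replicate 4 (log2 -6.82, edgeR adjusted p = 1.1e-06), and with the boar as a block (log2 -5.29, edgeR adjusted p = 0.0185). The neighbouring KRT35 (chromosome 12, 21166366 to 21171894), named after its values were seen, had 17.6 CPM in epididymis replicate 4, 0.228 to 2.50 CPM in the other epididymis libraries and 0.265 to 1.34 CPM in testis. Its call (log2 2.78, edgeR adjusted p = 0.0237) was lost without epididymis replicate 4 (log2 0.97, edgeR adjusted p = 0.195), and also without testis replicate 1, 2, 3 or 5 (log2 2.55 to 2.72, edgeR adjusted p = 0.0501 to 0.0595) or with testis replicate 4 by itself (edgeR adjusted p = 0.604 at a log2 fold change of 1.59). With the boar as a block it was 1.68 (edgeR adjusted p = 0.0462).

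Genes with the course most like KRT5 and KRT8 were sought among 13079 tested genes with a symbol, as the smallest root mean square difference of log2 CPM, each gene relative to its own mean, over the 10 libraries. For KRT8 they were TPM1, a tropomyosin (0.263), CLDN3, a tight junction claudin (0.333), HOXB3, a homeobox gene (0.382), HAAO, an enzyme of tryptophan breakdown (0.384), and APCDD1, a WNT inhibitor (0.468). CLDN3 had 483, 333, 361, 335 and 294 CPM in epididymis replicates 1 to 5, and was highest in replicate 1 and lowest in replicate 5, as KRT8 was. For KRT5 the nearest were farther away: HOXB7, a homeobox gene (0.872), WFDC9, of a protease inhibitor family (0.939), TMEM125, a membrane protein (1.02), EMX2, a homeobox gene (1.03), and NPC2, a secreted sterol-binding protein (1.03). The difference between the tissues dominates this measure, and the libraries of a boar share the animal.

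Other cell types were described by their lists, whose counts stand against 37.8% of all tested genes higher and 36.6% lower in epididymis. Smooth muscle genes, from the coat of the duct, were higher in epididymis for 9 of 9 tested genes (median log2 fold change 4.97), and principal cell genes for 11 of 12 (9.13). Fibroblast genes were higher in epididymis for 7 of 8 (2.22). Leukocyte genes were higher for 6 of 8 and lower for 1 (1.92), and endothelial genes higher for 4 of 8 (0.76), near the share of all tested genes. Clear cell genes were higher for 1 of 6 and lower for 2 (-0.27), the lower count also near that share. Their defining regulator FOXI1, named after its values were seen and too low for the test, reached 10.5 CPM in epididymis replicate 3, against at most 0.111 CPM in the other epididymis libraries and at most 0.160 CPM in testis. Genes of ciliated efferent duct cells were higher in epididymis for 1 of 9 and lower for 5 (-2.08). Mesothelial genes, of the keratin-bearing lining of the organs, were lower for 2 of the 3 tested (-2.15), and their sum was 5.88 to 14.3 CPM in epididymis and 42.5 to 52.6 CPM in testis. Most of that sum was WT1 (5.53 to 13.5 CPM in epididymis and 38.9 to 46.4 CPM in testis), which is also on the Sertoli cell list. CALB2, one of them, had 0 reads in every epididymis library. Sertoli cell genes were lower in epididymis for 9 of 12 and higher for 1 (-1.59), Leydig cell genes for 6 of 6 (-9.84) and germ cell genes for 11 of 11 (-6.78).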

How the data were processed

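Per the labels' protocols, oligo(dT) selected mRNA was copied with SMARTer chemistry and amplified. The signal recognition particle RNA, which has no poly(A) tail, was nevertheless high in testis replicates 1, 2, 3 and 5. Whether those libraries were made in the same way as the others was not tested. Cutadapt 3.0, STAR and featureCounts of Subread were used with the build Sscrofa11.1, per the submitters' processing notes. For annotation release and strand setting, the sources used here give nothing. Each deposited table holds whole-number read counts and a row length in bases, per the file headers. The authors' counts were tested with edgeR 4.0.16 in R 4.3.3 (filterByExpr, TMM factors, robust quasi-likelihood test, tissue as the term, all 10 libraries), with Benjamini-Hochberg adjustment over 17225 genes. The SE is the log2 fold change divided by the square root of the F statistic. The edgeR script was run on simulated data in which few genes differed between the tissues, unlike here. That run checked the code and does not bear on scaling or error rates in these data. CPM uses the library total and TPM the deposited lengths. Positions come from the RefSeq table of Sscrofa11.1. No sequence was used.

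Scores over the markers carry no test. The same boars gave both tissues, per the animal numbers in the file headers, yet deviations of same-boar libraries from their tissue means correlated across genes at only 0.007 to 0.089. The fit with the boar as a block was an alternative, as were DESeq2 1.42.0, other scalings, no filter, and leaving out libraries. Replicates differed by more than sampling noise (lowest chi-square per degree of freedom 72.5 in epididymis and 9.53 in testis). Members and lists were chosen with earlier results of these data known. The rule for named genes took the 2 most abundant called genes in each direction of a list and the 5 most abundant keratins. It is used for the epithelial lists, and the other cell types are given as counts and sums.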

Additional observations from a re-analysis of the deposited data

Results flagged for a closer look

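In 10 of 52 groups of 5 libraries, 1 library lay far from the others. Chance would give about 1 in 20 for independent values with a normal spread. These were CPM, some near 0, of genes that share the same libraries. The groups include KRT35, named after its values were seen and chosen for its value in epididymis replicate 4. For these reasons, and as 2 of the 10 are of KRT35, the count cannot be read against chance. In epididymis replicate 4 these were KRT5 at 292 CPM (34.2 to 92.5 CPM in the others), KRT36 at 44.6 CPM (0 to 0.147) and KRT35 at 17.6 CPM (0.228 to 2.50). In epididymis replicate 3 it was TRIM29 at 351 CPM (11.2 to 65.0), and in replicate 5 ELF5 at 1.81 CPM (0.137 to 0.602). DEFB128 and FOXI1 were not among the groups. They too lay far off in epididymis replicate 3, at 11670 CPM (30.9 to 496) and 10.5 CPM (0 to 0.111).

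In testis replicate 4 the same held for EPCAM at 21.7 CPM (6.35 to 8.34 in the others), SPINT2 at 134 CPM (56.3 to 65.6), S100A2 at 0.641 CPM (0 to 0.0821) and KRT35 at 1.34 CPM (0.265 to 0.575). KRT15 stood at 0.154 CPM in testis replicate 1, which is 3 reads, against 0 to 0.0411 CPM in the others.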

How the results depend on the processing

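Of 136 repeats of the marker tests (8 genes, 17 alternatives), 135 kept direction and call, and TP63 kept its direction without the call when testis replicate 4 stood alone for its tissue. That setting called 2145 genes higher in epididymis, against 6506 with all libraries, but tested other genes (18896) with 1 library on a side. Leaving out single libraries gave 6094 to 6883 genes higher in epididymis and 6124 to 6980 in testis, and 8 markers each time. With the replicate block of boars, 6055 and 6307 genes were called, all 8 markers included, and of the named genes only KRT36 changed its call. Among the other 14 named genes, 221 of 237 repeats kept direction and call. KRT36 turned to 0.18 to 0.20 without epididymis replicate 1, 2, 3 or 5, and to 0.14 with testis replicate 4 alone, with no call, and stood at -6.82, now called, without epididymis replicate 4. The epididymis level of KRT36 rests on replicate 4, at 44.6 CPM against 0 to 0.147 CPM in the other epididymis libraries. Why that library was high was not tested. DESeq2 size factors moved the median log2 fold change of all genes from 0.07 to -0.05. The basal share in epididymis, 18.9%, was 31.8% without division by length, 6.23% without KRT14 and KRT7, and 3.49% without KRT14. The mean log2 difference of -2.42 became -3.66 without KRT14, which was left out after seeing the data. Leaving out single epididymis libraries gave 18.0 to 19.0% and -2.61 to -2.17. Totals of 4 to 27 testis reads limit KRT5, KRT15 and KRT18.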
